A study of Mus musculus with 6 samples.

Results

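AP-1 family transcription factors were followed in IL-33-activated lung ILC2s (aILC2s) with and without VISTA. The family was taken as 10 listed genes, Jun, Junb and Jund, Fos, Fosb, Fosl1 and Fosl2, and the related Batf, Atf3 and Maff. Of these, 9 were measured, out of 15212 genes in the count table, and all 9 passed the filter on low counts that left 13166 genes for testing. Fosb was not analysed here.

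AP-1 is a pair of basic leucine zipper (bZIP) proteins that grip DNA together. Jun proteins can pair with each other or with a Fos protein, whereas Fos proteins need a partner, and BATF, ATF3 and the small MAF proteins join or replace these subunits in other pairs. Several of the genes are switched on within minutes by growth factors, cytokines, stress and the handling of tissue, and in lymphocytes AP-1 acts with NFAT and IRF proteins at cytokine genes.

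The study compared aILC2s of 3 Vsir-/- and 3 WT libraries by bulk RNA-Seq. All mice were sex-matched, a few weeks old and on a BALB/c background, and all received 0.5 µg of recombinant mouse IL-33 into the nose on 3 days, with isolation on day 4. ILC2s were sorted from digested lungs as live CD45+ lineage-negative ST2+ CD127+ cells, and 10 pg of RNA per library was amplified. The Vsirtm1Lex deletion is carried by every cell of the knockout mice, and the allele came from a stock of other parentage, while WT mice were BALB/cByJ, and littermates are not mentioned in the sources used here. According to the labels the ILC2s were fresh in 1 field and cultured in another. Whether each library had its own mice is not given, and the spread behind each p-value is that of the libraries. Replicates 1 and 2 of each genotype share a label number, so they may not be independent. Vsir, the gene of VISTA, had 0, 0.122 and 0 CPM (counts scaled to library totals with TMM factors) in Vsir-/- replicates 1, 2 and 3, against 6.82, 6.40 and 7.33 CPM in WT replicates 1, 2 and 3 (exact permutation test, two-sided, p = 0.1, which is the lowest p possible with 3 against 3). Library totals lay between 15747224 and 16638143 counts in Vsir-/- and between 15680902 and 29198029 in WT, and a count of 0 allowed a level of up to 0.191 CPM where depth was lowest. With bulk RNA, fewer cells that express a gene and less of its RNA per cell cannot be told apart.

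The RefSeq table of promoters (build GRCm38.p6) held 8 of the 9 genes. The last 150 bases before the transcription start are shown for Atf3, Jun and Junb, which had the largest fold changes below, and for Fos, which alone fell, since members of the family are textbook targets of their own and of related bZIP proteins. Capitals mark matches to TGACNTCA, a cyclic AMP response element (CRE) type site, or to TGACG, which is part of TGACGTCA, on either strand. The windows are chr4:95052223-95052372 (minus strand) for Jun, chr8:84978749-84978898 (minus strand) for Junb, chr12:85473740-85473889 (plus strand) for Fos and chr1:191183334-191183483 (minus strand) for Atf3, whose window lies inside the longer GENCODE gene model given below.
Jun: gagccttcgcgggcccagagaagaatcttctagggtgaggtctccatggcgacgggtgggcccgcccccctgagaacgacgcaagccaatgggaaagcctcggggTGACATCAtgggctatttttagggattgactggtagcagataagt
Junb: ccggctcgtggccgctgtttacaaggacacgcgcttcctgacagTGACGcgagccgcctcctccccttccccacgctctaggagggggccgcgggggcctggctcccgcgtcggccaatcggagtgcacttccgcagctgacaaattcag
Fos: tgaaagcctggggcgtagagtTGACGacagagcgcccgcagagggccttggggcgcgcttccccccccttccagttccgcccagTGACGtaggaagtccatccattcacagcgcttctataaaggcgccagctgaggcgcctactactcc
Atf3: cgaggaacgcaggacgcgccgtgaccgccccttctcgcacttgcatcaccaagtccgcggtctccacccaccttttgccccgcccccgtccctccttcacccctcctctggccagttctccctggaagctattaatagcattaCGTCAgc
The 8 genes had 10 windows, since Maff has 3 starts in the table. The Jund window ended at chr8:70697738, well before the GENCODE start of Jund at 70698949, and the Fosl2 window lies inside its GENCODE gene model. For these genes a lack of matches holds for the RefSeq start only. Over the 250 bases before the start, TGACNTCA was found in 3 of the 10 windows (Jun at position -45 from the start, and 2 starts of Maff), and in 7.49% of 32851 promoter windows of the same length. The shorter TGACG was found in 6 of the 10 (Fos, Junb, Batf, Atf3 and 2 starts of Maff), against 17.8% of all windows. The AP-1 site TGANTCA, present in 6.75% of windows, and the CArG box of serum response factor, present in 1.47%, were in none of the 10, which says only that these letters are not in these windows. The sites are matches of letters in the reference and were not measured.

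Jun and Junb were much more abundant in Vsir-/- aILC2s, and Jund, the subunit least tied to acute stimulation, was not called. Jun (chr4:95049034-95052222 in GENCODE on GRCm38, as for the genes below), the founding subunit and a strong activator, had 56.8, 67.2 and 48.5 CPM in Vsir-/- replicates 1, 2 and 3, against 12.1, 11.3 and 11.5 CPM in WT replicates 1, 2 and 3. Every Vsir-/- library held at least 4.02 times the level of the highest WT library, and the spread in Vsir-/- came mainly from a high replicate 2 and a low replicate 3. The log2 fold change was 2.31 (standard error 0.14, 95% confidence interval 2.01 to 2.61, adjusted p = 7.41e-07 from edgeR's quasi-likelihood test, adjusted over all genes tested by the Benjamini-Hochberg method, here and below).

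Junb (chr8:84974484-84978718), a subunit with prominent roles in cytokine expression of T helper lymphocytes, was the most abundant member. It had 735, 911 and 842 CPM in Vsir-/- replicates 1, 2 and 3, against 239.95, 258 and 230.3 CPM in WT replicates 1, 2 and 3, so the lowest Vsir-/- library held 2.85 times the level of the highest WT library. Junb had a log2 fold change of 1.77 (standard error 0.10, adjusted p = 5.22e-07). Jund (chr8:70698949-70700616), which most cells express steadily, had 92.1, 151 and 106 CPM in Vsir-/- replicates 1, 2 and 3, against 101, 125 and 112 CPM in WT replicates 1, 2 and 3. The genotypes overlapped, with replicate 2 highest in both. The log2 fold change of 0.04 had a 95% confidence interval of -0.32 to 0.41 (adjusted p = 0.859), so changes of up to that size in either direction were not resolved.

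**Figure D1:**
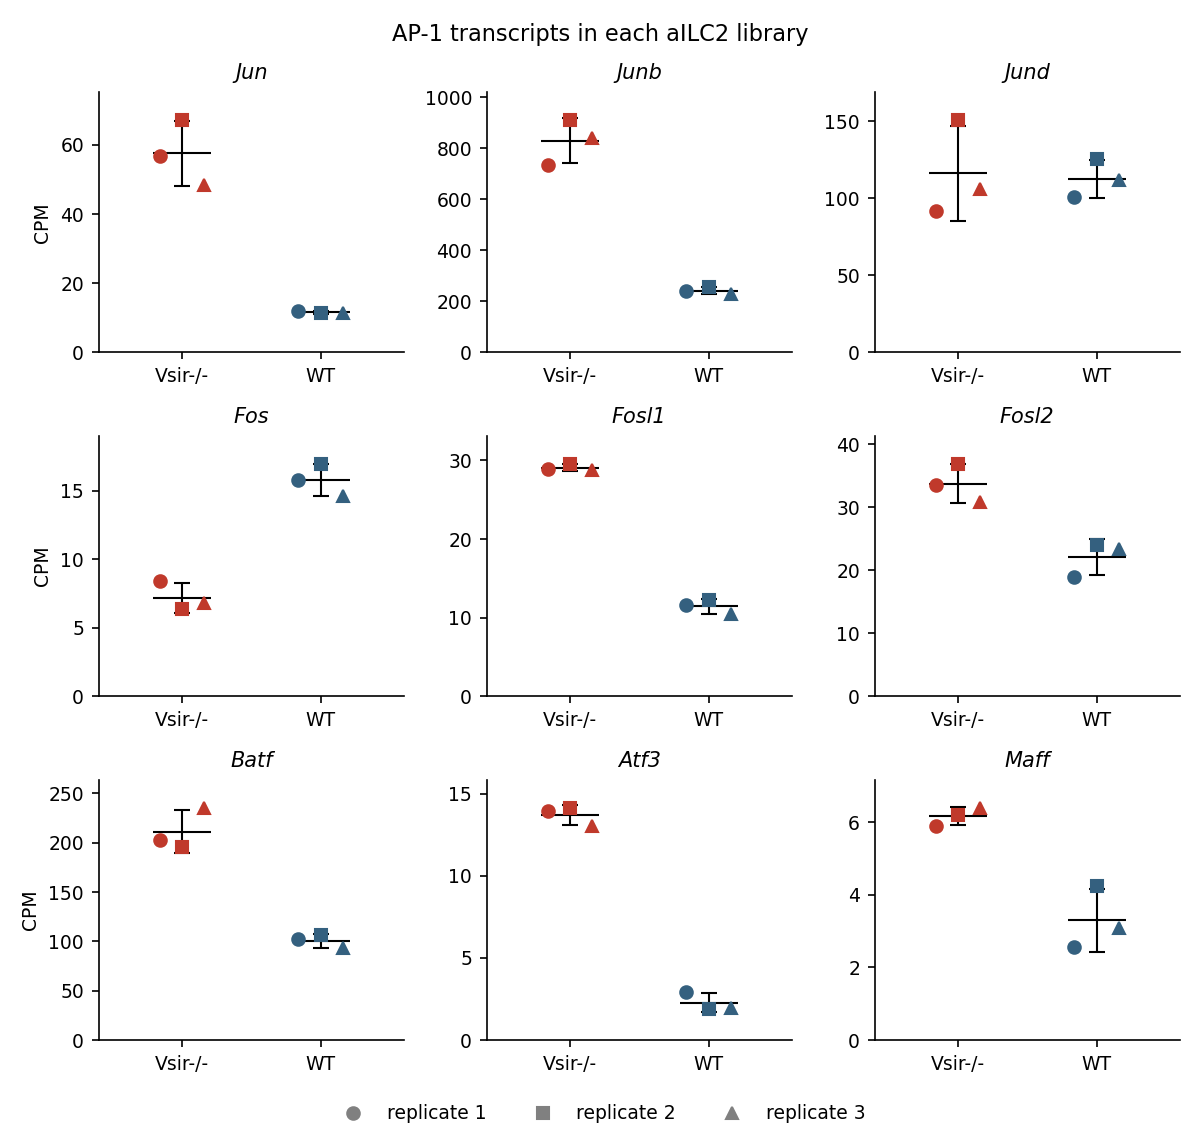
Levels of the 9 measured AP-1 genes in each library, in CPM on a linear axis that starts at 0, with Vsir-/- libraries (red) left of WT libraries (blue). Symbols are replicates, and bars are the mean ± SD of 3 libraries. The Vsir-/- libraries lie wholly above WT for 7 genes and wholly below for Fos, and the genotypes overlap for Jund.

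Within the Fos subfamily, Fos went the other way from Fosl1 and Fosl2. Fos (chr12:85473890-85477273), the prototype immediate early gene, had 8.41, 6.38 and 6.78 CPM in Vsir-/- replicates 1, 2 and 3, against 15.8, 17.0 and 14.7 CPM in WT replicates 1, 2 and 3. All Vsir-/- libraries lay below all WT libraries, with 131, 105 and 109 counts in Vsir-/- replicates against 253, 491 and 252 counts in WT replicates. The log2 fold change was -1.14 (standard error 0.15, adjusted p = 0.00017), which placed Fos at the 4.97 percentile of all genes tested, from the lowest fold change up.

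Fosl1 (chr19:5447547-5455946), which encodes FRA-1, a subunit without the strong activation domain of FOS, had 28.9, 29.6 and 28.7 CPM in Vsir-/- replicates 1, 2 and 3, against 11.6, 12.3 and 10.4 CPM in WT replicates 1, 2 and 3. The groups were tight and well apart, with a log2 fold change of 1.34 (standard error 0.12, adjusted p = 1.16e-05). Of its 2033 merged exon bases, 1163 overlap exons of Ccdc85b on the other strand, its estimated counts were whole in none of the 6 libraries, and whether the counting used strand is not given in the sources used here. Ccdc85b itself was lower, with 12.3, 11.4 and 13.4 CPM in Vsir-/- replicates against 15.6, 16.9 and 15.2 CPM in WT replicates (log2 fold change -0.37, adjusted p = 0.0373). For the sum of both genes the log2 fold change was 0.60 (adjusted p = 0.000927), an alternative chosen after the data were seen. The sum holds all Ccdc85b reads, also those outside the shared bases, and falls below the Fosl1 value however the reads were divided. The size of the Fosl1 difference can depend on how the authors divided the shared reads, which was not tested.

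Fosl2 (chr5:32135801-32157842), which encodes FRA-2, had 33.6, 36.9 and 30.7 CPM in Vsir-/- replicates 1, 2 and 3, against 18.9, 24.0 and 23.3 CPM in WT replicates 1, 2 and 3. The groups did not overlap, but the gap was narrow, with the lowest Vsir-/- library at 1.28 times the highest WT library. Fosl2 had a log2 fold change of 0.61 (standard error 0.13, adjusted p = 0.00368).

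Batf and Atf3 were higher in Vsir-/- aILC2s, and Maff was so at low counts. Atf3 (chr1:191170296-191218039), a stress-induced factor that mostly represses, had 13.9, 14.2 and 13.0 CPM in Vsir-/- replicates 1, 2 and 3, against 2.94, 1.90 and 1.98 CPM in WT replicates 1, 2 and 3. Its lowest Vsir-/- library held 4.42 times the level of the highest WT library. The log2 fold change of 2.62 (standard error 0.19, adjusted p = 3.09e-06) was the largest of the 9 genes and stood at the 99.3 percentile of all genes tested, next to Jun at 99.0 and Junb at 98.4.

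Batf (chr12:85686669-85709087), which pairs with JUN proteins and recruits IRF4 in lymphocytes, had 202, 196 and 236 CPM in Vsir-/- replicates 1, 2 and 3, against 102, 107 and 93.0 CPM in WT replicates 1, 2 and 3. The lowest Vsir-/- library held 1.83 times the level of the highest WT library, and the log2 fold change was 1.07 (standard error 0.10, adjusted p = 1.91e-05). Maff (chr15:79346621-79359076), a small MAF protein with no activation domain of its own, had 5.91, 6.20 and 6.41 CPM in Vsir-/- replicates 1, 2 and 3, against 2.57, 4.26 and 3.08 CPM in WT replicates 1, 2 and 3. WT replicate 2 came nearest to Vsir-/-, and the log2 fold change was 0.87 (standard error 0.21, adjusted p = 0.00742).

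In all, 8 of the 9 AP-1 genes were called, against 38.9% of all genes tested. The genes were chosen with earlier results of these data known, so the counts are not independent of that choice. Of the 9, 7 rose in Vsir-/- aILC2s, as did 18.9% of all genes, 1 fell, as did 20.1%, and 1 did not pass the test. Of the 9, 5 rose by over 2-fold (Jun, Junb, Fosl1, Batf and Atf3), where 4.59% of all genes did. The genotypes did not overlap for 8 of the 9, but this held for 49.4% of all genes as well, so that count alone says little. The median log2 fold change of the 9 was 1.07, beside -0.01 over all genes tested. Exons of Jun overlap those of Junos by 232 bases and exons of Junb those of Prdx2 by 173 bases on the other strand. Junos stood at 0 to 0.425 CPM in Vsir-/- and 0.0626 to 0.407 CPM in WT. Prdx2 stood at 130.3 to 160.5 CPM in Vsir-/- and 123 to 160.1 CPM in WT. With all counts of these genes added, the log2 fold changes of Jun and Junb were 2.29 and 1.34. Prdx2 itself had a log2 fold change of -0.01, so adding it lowers the Junb value whether or not reads are shared. The estimated counts of Junb were whole in every library, and those of Jun were not whole in 4. Jund shares 877 exon bases with Gm11175, which was not analysed here.

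**Figure D2:**
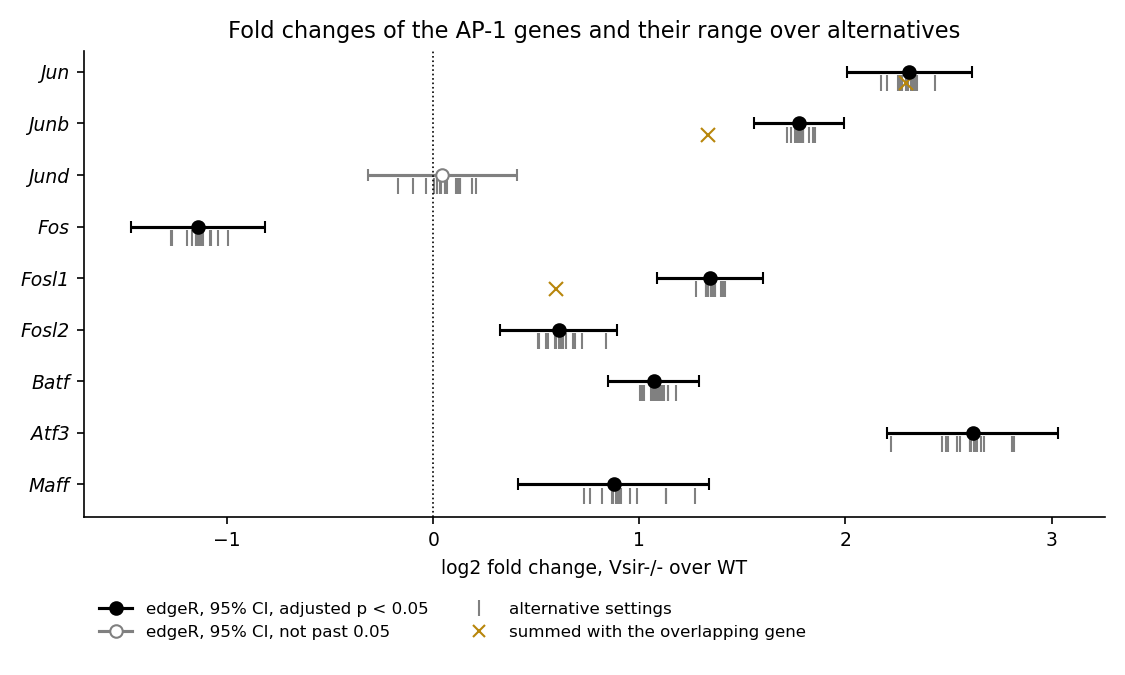
Log2 fold changes of the 9 AP-1 genes, Vsir-/- over WT, with 95% confidence intervals from edgeR (filled where the adjusted p is under 0.05). Grey ticks are the alternative settings and crosses the sums with an overlapping gene. No tick of the 8 called genes crosses 0, and the cross of Fosl1 lies at 0.60, left of its interval.

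Compared between genes per length, as CPM per kilobase of merged exons, the order of the AP-1 genes changed with genotype. In Vsir-/- aILC2s, Junb stood first at 360.4 ± 38.4, followed by Batf at 150.3 ± 15.2, Jund at 69.7 ± 18.5, Jun at 18.0 ± 2.94, Fosl1 at 14.3 ± 0.223, Atf3 at 6.36 ± 0.285, Fosl2 at 3.48 ± 0.318, Fos at 3.06 ± 0.457 and Maff at 2.38 ± 0.0968 CPM per kilobase (SD, n = 3 libraries, here and below). Among these neighbours only Fosl2 and Fos overlapped. In WT aILC2s the order was Junb at 105 ± 6.06, Batf at 71.6 ± 5.03, Jund at 67.6 ± 7.33, Fos at 6.73 ± 0.496, Fosl1 at 5.63 ± 0.468, Jun at 3.64 ± 0.13, Fosl2 at 2.28 ± 0.287, Maff at 1.27 ± 0.334 and Atf3 at 1.06 ± 0.269 CPM per kilobase. There Batf and Jund overlapped, as did Maff and Atf3. The place of Fosl1 in both orders can depend on how the reads shared with Ccdc85b were divided.

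The make-up of both subfamilies shifted accordingly, given here as a description with no test. Junb made up 80.6% ± 2.26 of the summed Jun, Junb and Jund level per kilobase in Vsir-/- libraries and 59.7% ± 1.85 in WT libraries, and Jund 15.4% ± 2.12 in Vsir-/- and 38.2% ± 2.00 in WT. Jun stayed a minor part, at 4.04% ± 0.565 in Vsir-/- and 2.07% ± 0.198 in WT. Among the measured Fos genes, Fos made up 14.7% ± 2.00 in Vsir-/- and 46.0% ± 0.721 in WT, and Fosl1 68.6% ± 1.61 in Vsir-/- and 38.4% ± 1.26 in WT, which depends on the reads shared with Ccdc85b. The share of Fosl2 was 16.7% ± 1.22 in Vsir-/- and 15.6% ± 1.98 in WT. With no division by length, Fosl2 took 48.1% in Vsir-/- and 44.7% in WT, more than Fos in both, and Fosl1 41.6% in Vsir-/- and 23.2% in WT. Summed over the subfamily, Jun genes stood at 448 ± 57.5 CPM per kilobase in Vsir-/- against 177 ± 12.2 in WT, and Fos genes at 20.8 ± 0.569 in Vsir-/- against 14.6 ± 1.01 in WT. The ratio of Jun to Fos transcripts per kilobase was 18.5, 24.1 and 22.0 in Vsir-/- replicates 1, 2 and 3, against 11.7, 12.1 and 12.4 in WT replicates 1, 2 and 3, with no overlap. With no division by length it was 12.5 to 15.5 in Vsir-/- and 7.31 to 7.61 in WT, and the Fos sum holds the uncertain reads of Fosl1.

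**Figure D3:**
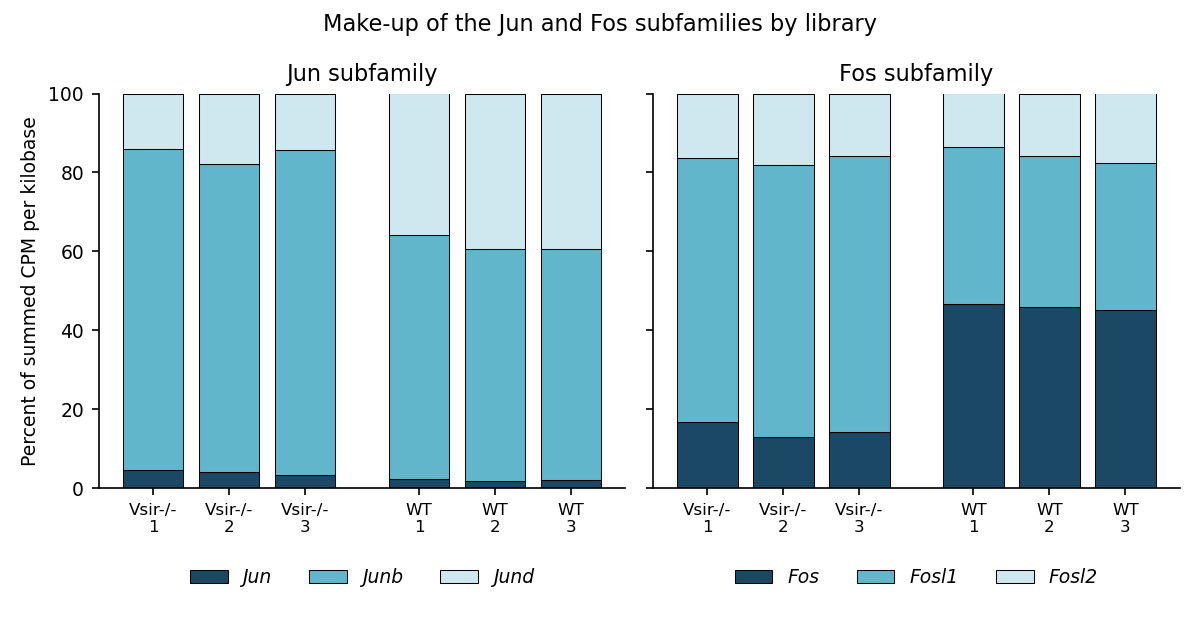
Make-up of the Jun subfamily (left) and the Fos subfamily (right) in each library, Vsir-/- before WT, as percent of the summed CPM per kilobase of merged exons. Bars start at 0 and sum to 100 percent, without Fosb. The Fos segment fills 12.9% to 16.8% in Vsir-/- libraries and 45.3% to 46.7% in WT libraries.

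Within a genotype, some libraries stood high or low for most of the AP-1 genes. The same count over all genes was not made, so the values below do not single out the AP-1 genes. In replicate 2 of Vsir-/- and in replicate 2 of WT, 7 of the 9 genes lay above the mean log2 CPM of their genotype, whereas 7 lay below it in Vsir-/- replicate 1, 6 in Vsir-/- replicate 3 and 8 in WT replicate 3. WT replicate 1 had 5 above and 4 below. The widest deviation from a genotype's mean in Vsir-/- was that of Jund in replicate 2, 0.41 on the log2 scale, and the widest in WT were those of Atf3 in replicate 1 and of Maff in replicate 2, at 0.40 each. These deviations are small beside the log2 fold changes of Jun, Junb and Atf3. The widest deviation of Fosl2 was -0.22, in WT replicate 1, beside its log2 fold change of 0.61. For Maff the 0.40 in WT replicate 2 stands beside a log2 fold change of 0.87.

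Genes that act upstream of AP-1 were called in both directions, and the counts stand beside 18.9% higher and 20.1% lower among all genes tested. Of 19 MAP kinase cascade genes, which relay stimuli to JUN and FOS proteins, 3 rose, 6 fell and 10 did not pass the test (median log2 fold change 0.04). Map3k8, a kinase that feeds the ERK and JNK branches, averaged 76.8 ± 9.53 CPM in Vsir-/- and 30.3 ± 2.61 CPM in WT (log2 fold change 1.34, adjusted p = 1.28e-05). Mapkapk2, a kinase of the stress branch that stabilises messenger RNAs, averaged 519.96 ± 18.5 CPM in Vsir-/- and 343 ± 7.56 CPM in WT (log2 fold change 0.60). Map2k6, an activator of the stress kinases, fell to 5.01 ± 0.954 CPM in Vsir-/-, against 12.8 ± 1.63 CPM in WT (log2 fold change -1.35, adjusted p = 0.000188). Of the other called genes, Map2k3 rose (0.41), and Mapk3, Mapk14, Mapk8, Rps6ka1 and Mapk9 fell (-0.80, -0.70, -0.66, -0.41 and -0.24). Of 13 genes of SRF, its cofactors and CREB, the factors that switch on Fos, 3 rose, 4 fell and 6 did not pass (median -0.02). Crem, a CREB relative with activating and repressing forms, rose (log2 fold change 1.23, adjusted p = 2.07e-05), and the coactivators Crtc3 and Mrtfa fell (-0.87 and -0.75). Srf and Crtc2 also rose (0.39 and 0.28), and Creb1 and Elk3 also fell (-0.55 and -0.38).

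Of 12 tested bZIP partner genes outside the family, 2 rose and none fell by edgeR's adjusted p. Here and for the turnover, IRF and NFAT genes below, the shares over all genes tested were 18.9% higher and 20.1% lower. At an unadjusted p under 0.05 stood 3 higher and 1 lower, and 6222 of all 13166 genes tested. DESeq2 called 3 higher and none lower, and limma voom 3 higher and 1 lower, beside 5109 and 5840 calls over all genes. The risen genes were Nfe2l1 and Mafk (log2 fold changes 0.53 and 0.43), and the median was -0.03. The count was 4 without WT replicate 3. Of 6 genes for the turnover of JUN and FOS proteins none was called in either direction by edgeR, with 1 at an unadjusted p under 0.05 and 1 each by DESeq2 and by limma voom, and 1 was called by edgeR without Vsir-/- replicate 2, Vsir-/- replicate 3 or WT replicate 2. Among 5 IRF and NFAT genes whose proteins bind DNA next to AP-1, Irf4, the partner of BATF, averaged 296 ± 34.0 CPM in Vsir-/- and 87.5 ± 11.1 CPM in WT (log2 fold change 1.76, adjusted p = 1.98e-06). Irf8 and Nfatc1 fell (log2 fold changes -0.52 and -0.45), the other 2 did not pass, and the median was -0.38.

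Of 12 textbook targets of AP-1 tested, 7 rose, 2 fell and 3 did not pass (median log2 fold change 0.79), beside 18.9% higher and 20.1% lower among all genes tested. This list too was chosen with earlier results of these data known. Plaur, the receptor of urokinase, averaged 16.4 ± 1.91 CPM in Vsir-/- and 4.22 ± 0.856 CPM in WT (log2 fold change 1.95, adjusted p = 1.62e-05), Hbegf, a growth factor of the EGF family, 19.4 ± 1.31 CPM in Vsir-/- and 7.59 ± 0.504 CPM in WT (1.35), and Vegfa, an angiogenic factor, 25.7 ± 0.383 CPM in Vsir-/- and 11.5 ± 1.15 CPM in WT (1.16). The log2 fold change of Mmp10, a matrix protease, was 1.62. Against these, Gzmb, the protease granzyme B, fell to 14.1 ± 2.53 CPM in Vsir-/-, against 125 ± 17.7 CPM in WT (log2 fold change -3.15, adjusted p = 2.77e-07). Binding of AP-1 was not measured at any of these genes.

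**Figure D4:**
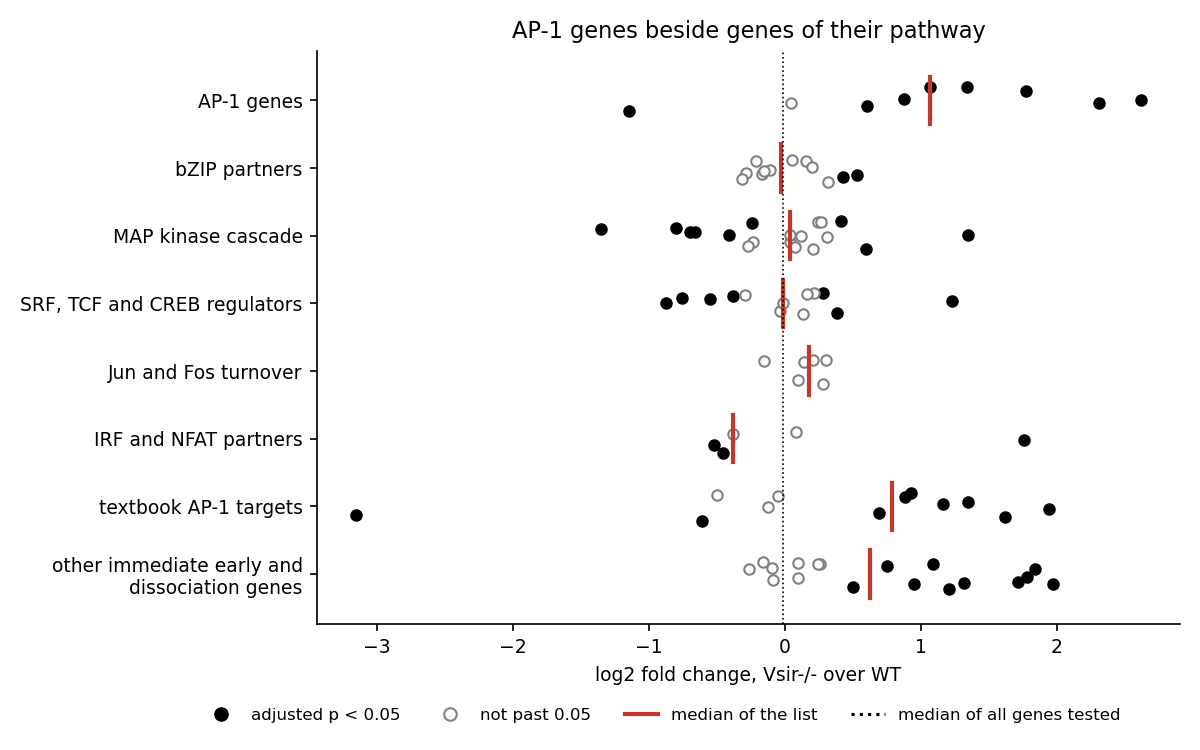
Log2 fold changes, Vsir-/- over WT, of the AP-1 genes (top) and of genes of their pathway, each point a gene tested (filled where the adjusted p is under 0.05). Red bars are list medians and the dotted line the median of all genes tested, at -0.01. The AP-1 genes spread between -1.14 and 2.62, and most other lists lie around the dotted line, apart from the textbook targets (median 0.79), the other immediate early genes (median 0.63) and the IRF and NFAT genes (median -0.38).

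Immediate early genes other than AP-1, and heat shock genes that tissue digestion can induce, were also higher in Vsir-/- aILC2s in part. Of 18 tested, 10 rose and none fell by edgeR's adjusted p, beside 18.9% higher and 20.1% lower among all genes tested. At an unadjusted p under 0.05 stood 12 higher and 1 lower, and 6222 of all 13166 genes tested. DESeq2 called 10 higher and none lower, and limma voom 10 and 1. The median log2 fold change was 0.63. Ier3 averaged 98.3 ± 13.1 CPM in Vsir-/- and 25.1 ± 2.76 CPM in WT (log2 fold change 1.97, adjusted p = 1.58e-06), and Zfp36, which destabilises messenger RNAs, 141 ± 4.60 CPM in Vsir-/- and 60.9 ± 7.72 CPM in WT (1.21). Egr2 and Egr3, zinc finger factors, had log2 fold changes of 1.84 and 1.72, and Nr4a2, an orphan nuclear receptor at 0.346 to 2.67 CPM, of 1.78. The chaperone genes Hsp90aa1, Hspa1b and Hspa1a had 0.75, 1.09 and 1.32, where the last 2 are near copies that can share reads. Egr1, often induced together with Fos and named after its values were seen, had 73.3, 80.4 and 69.4 CPM in Vsir-/- replicates against 65.8, 70.9 and 71.7 CPM in WT replicates (adjusted p = 0.446). The 10 called genes moved with 7 of the AP-1 genes and against Fos, the other 8 did not pass the test, and the part of handling in the AP-1 differences was not tested.

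Markers of other cell types were detected, some of them at or above the level of the less abundant AP-1 genes and different between the genotypes, and their part in the AP-1 values was not tested. The 9 ILC2 markers were present in every library and summed to 16802 to 19815 CPM in Vsir-/- and 11359 to 12117 CPM in WT, of which Il5 alone was 15643 ± 1688 CPM in Vsir-/- and 8240 ± 562 CPM in WT. Il5, Il7r and Il13 rose, Il1rl1 and Ptprc did not pass the test, and 4 fell: Gata3 averaged 789 CPM in Vsir-/- and 1377 CPM in WT, Rora 147 CPM in Vsir-/- and 249 CPM in WT, Klrg1 187 CPM in Vsir-/- and 368 CPM in WT, and Thy1 5.55 CPM in Vsir-/- and 20.3 CPM in WT. The 2 measured T cell markers of 5 listed summed to 12.8 to 17.8 CPM in Vsir-/- and 44.7 to 50.3 CPM in WT, mostly Cd3g. The 4 epithelial markers summed to 4.30 to 5.41 CPM in Vsir-/- and 21.4 to 21.9 CPM in WT, mostly Epcam. Scgb1a1 was at 0 in all Vsir-/- libraries, and had 2.25, 1.59 and 0 CPM in WT replicates 1, 2 and 3. The 6 myeloid markers, of which Cd68 was the highest, summed to 10.5 to 11.8 CPM in Vsir-/- and 15.5 to 23.6 CPM in WT. Pecam1, the 1 endothelial marker measured, stood at 48.3 to 53.8 CPM in Vsir-/- and 35.6 to 41.0 CPM in WT. The 3 granulocyte and mast cell markers measured of 8 summed to 3.02 to 5.91 CPM in Vsir-/- and 1.94 to 2.79 CPM in WT. Among them Mcpt8 rose, with 2.89 to 5.72 CPM in Vsir-/- and 0.626 to 1.05 CPM in WT, and Cpa3 fell, with 1 count over the Vsir-/- libraries and 75 counts over the WT libraries. Hba-a1 of red cells stood at 0.578 to 1.22 CPM in Vsir-/- and 2.50 to 3.29 CPM in WT. The single B cell marker, Cd79a, stayed at up to 0.182 CPM in Vsir-/- and 0.813 CPM in WT, and the single NK cell marker, Eomes, at 0 in Vsir-/- and up to 0.0626 CPM in WT. Fibroblast markers were not analysed here. Mitochondrial transcripts took 0.334% to 0.553% of the counts in Vsir-/- and 0.452% to 0.585% in WT.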

How the data were processed

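Bulk RNA-Seq libraries of aILC2s (3 Vsir-/-, 3 WT) were used as deposited by the authors, as estimated counts per gene, not scaled. The submitters' processing notes name Partek 10.0, STAR 2.7.8, the mm10 genome and DESeq2, and the annotation and use of strand are not given in the sources used here. Counts were rounded to whole numbers. Of 15212 genes, 19 were at 0 throughout, and filterByExpr (min.count of 10) left 13166. edgeR 4.0.16 (R 4.3.3) compared the genotypes with TMM factors (0.989 to 1.02), the quasi-likelihood F test and a threshold of 0.05 after Benjamini-Hochberg adjustment. The fit was checked on simulated data. Standard errors come from unshrunken coefficients. Limits for genes at 0 take 3 counts and cover counting error only. Exon lengths and overlaps came from GENCODE on GRCm38, promoters from RefSeq. The authors' counts of libraries of a genotype differed beyond sampling noise (chi-square over degrees of freedom 10.2 to 26.8), and all 6 were kept. The lowest value of each genotype was that of replicates 1 and 2, which share a label number (10.2 in WT, 12.2 in Vsir-/-). These values do not settle whether the libraries are independent. The members and gene lists were chosen with earlier results of these data known. Of each list, the text names the called genes with the 3 smallest adjusted p at 5 CPM or more, any called at over 2-fold, and the highest marker of each other cell type. For the MAP kinase list and the SRF and CREB list all called genes are named, which was decided after their values were seen. Alternatives were DESeq2 1.42.0, RLE factors, limma 3.58.1 voom, other filters, thinning, a replicate block, replicates summed, subsets and single libraries left out.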

Additional observations from a re-analysis of the deposited data

How the results depend on the processing

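Each of the 9 AP-1 genes kept its direction where called, and its side of the threshold, under all 17 alternatives to the edgeR test, apart from Maff, which the filter at a mean of 5 CPM removed, leaving 6 higher members there. Fosl2 and Maff came nearest to the threshold, with adjusted p of up to 0.0492 and 0.0481, and the uncalled Jund changed sign under 3 alternatives. Whether the replicate numbers pair the libraries is not given in the sources used here. The deviations of equally numbered libraries correlated at -0.0849, 0.202 and -0.445 over 8564 genes, and those of unequally numbered ones at -0.482 to 0.478. Deviations from the mean of a genotype are tied to each other, so these values cannot decide it. With a replicate block, 8 members were called, the log2 fold changes of Jun, Fos and Atf3 were 2.30, -1.15 and 2.62, and 4093 genes were called in all, and the block ended no call among the members.

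Counts over all genes fell with fewer libraries, from 5126 called (2486 higher, 2640 lower) to 2480 (1206 higher, 1274 lower) without WT replicates 2 and 3, whose labels end in S0, which leaves 1 WT library assumed to vary like the others, and to 3240 (1591, 1649) and 3217 (1492, 1725) with 1 library per label number, replicates 1 and 3 or 2 and 3, since the labels give the first and second replicate of a genotype 1 common number. Leaving out each library in turn gave 3922 to 4950 calls, 1801 to 2525 higher and 2104 to 2486 lower, and always 8 AP-1 genes. Without the S0 libraries the calls were 1 among bZIP partners, 5 in the MAP kinase list, 3 in the SRF and CREB list and 1 among IRF and NFAT genes. With 1 library per label number they were 1 (replicates 1 and 3) and 0 (2 and 3) among bZIP partners and, with 2 and 3, 4 in the SRF and CREB list. Left-out libraries gave 2 to 4 bZIP partners (4 without WT replicate 3) and 0 to 1 turnover genes. The bZIP partners were 4 by limma voom, and the turnover genes were 1 by DESeq2, limma voom, no filter and replicates 1 and 3. The filter at 5 CPM left 6 calls among other immediate early genes. The cause was not tested.

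With the longest transcript as length, Junb made up 84.1% of its subfamily in Vsir-/- and 65.3% in WT, Fos 44.1% in WT, Fosl1 64.6% in Vsir-/- and 36.1% in WT, and Fosl2 21.3% in Vsir-/- and 19.9% in WT. With no division by length, Junb made up 66.1% in WT, Fos 10.3% in Vsir-/- and 32.1% in WT, Fosl1 41.6% in Vsir-/- and 23.2% in WT, and Fosl2 48.1% in Vsir-/- and 44.7% in WT, and the mean ratio of Jun to Fos sums was 14.3 in Vsir-/- and 7.44 in WT. Depth limits Maff and Atf3 most, with 41 to 123 and 34 to 55 counts in WT libraries.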
